A study of Mus musculus with 12 samples.

Results

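Insulin signalling and the trafficking of GLUT4, the insulin-responsive glucose transporter, were described through 9 genes in mouse bone marrow mesenchymal stem cells that had been pushed towards the fat cell lineage. The 9 genes were Insr, Irs1, Irs2, Pik3r1, Akt2, Pde3b, Lnpep, Tusc5 (now named Trarg1) and Slc2a4, found by symbol among the 23955 rows of a gene count table. All 9 passed the filter on low counts, as did 12323 genes in all. The genes were chosen from the pathway with their measured levels in these groups already known. Their levels and fold changes are therefore given as a description with no test. Where a value of theirs is said to pass a threshold, this places it by the cut used for all genes and is not a test. The other genes of the pathway are given with adjusted p-values, though their lists were also drawn up with earlier results of these data known. Those p-values are thus not independent of the choice either.

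The series held 12 RNA-seq libraries, 4 for each of 3 treatments. TBT cells received 50 nM tributyltin, an organotin compound that binds the nuclear receptors RXR and PPARγ. ROSI cells received 500 nM rosiglitazone, a thiazolidinedione that binds PPARγ and is used as an insulin-sensitising drug. DMSO cells received 0.1% DMSO, the vehicle. Cells of all 3 groups were commercial C57BL/6 cells from female mice at passage 9 to 10, and all were kept for 14 days in an adipogenic mix. The mix held insulin at 5 ug/mL, the glucocorticoid dexamethasone at 1 uM, and isobutylmethylxanthine, an inhibitor of phosphodiesterases, at 0.5 mM. Insulin was thus present in every group. The doses of TBT and ROSI differed, so a comparison of the 2 compounds holds for these doses alone. Whether the 4 libraries of a treatment stem from separate cultures is not stated, so a p-value measures library-to-library spread that may be technical.

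Insulin binds its receptor on the cell surface, and the receptor phosphorylates the substrate proteins IRS1 and IRS2. These recruit phosphoinositide 3-kinase, whose lipid product activates the kinase AKT2. In fat and muscle cells AKT2 then releases a store of small vesicles, which carry GLUT4 to the plasma membrane and let glucose in, while a second branch through the phosphodiesterase PDE3B restrains the breakdown of stored fat.

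The 9 genes did not move as 1 group. Slc2a4 and Tusc5 were 5.05-fold and 10.7-fold higher in ROSI than in DMSO cells and lower in TBT than in ROSI cells. Irs1 and Pde3b were higher in both TBT and ROSI cells than in DMSO cells. Pik3r1 was lower in ROSI cells than in both other groups, and Irs2 was lower in TBT than in ROSI cells. By the threshold used for the whole table (adjusted p under 0.05, edgeR quasi-likelihood test), 5 of the 9 genes were higher and 1 was lower in ROSI than in DMSO cells, where 10.0% of the 12323 tested genes were higher and 12.6% were lower. In TBT against DMSO cells 2 of the 9 were higher and the rest did not pass, where 8.22% of all tested genes were higher and 7.03% were lower. In TBT against ROSI cells 1 of the 9 was higher and 3 were lower, against 12.8% and 11.1% of all tested genes. Since the genes were chosen with these comparisons known, nothing is read from these counts. The 3 comparisons share their libraries and are not independent of each other.

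The promoter sequences of Irs1 and Irs2 are shown because these 2 substrates of the receptor differed from each other across the groups. Promoters were taken from RefSeq on build GRCm38.p6, where 5 of the 9 genes matched (Irs1, Irs2, Akt2, Pik3r1 and Lnpep). Slc2a4, Tusc5, Insr and Pde3b had no entry in that table. Each line gives the 250 bases before the annotated start, 5′ to 3′ on the gene's own strand. The Irs1 window is chr1:82291440-82291689 and the Irs2 window is chr8:11008930-11009179, both on the minus strand. Capitals mark the E-box CACGTG, a palindrome that basic helix-loop-helix proteins bind.
Irs1: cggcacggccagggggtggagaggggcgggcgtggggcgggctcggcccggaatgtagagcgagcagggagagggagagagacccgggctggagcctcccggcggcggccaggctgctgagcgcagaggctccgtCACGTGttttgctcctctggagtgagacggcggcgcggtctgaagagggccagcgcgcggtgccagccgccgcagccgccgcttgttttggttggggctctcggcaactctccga
Irs2: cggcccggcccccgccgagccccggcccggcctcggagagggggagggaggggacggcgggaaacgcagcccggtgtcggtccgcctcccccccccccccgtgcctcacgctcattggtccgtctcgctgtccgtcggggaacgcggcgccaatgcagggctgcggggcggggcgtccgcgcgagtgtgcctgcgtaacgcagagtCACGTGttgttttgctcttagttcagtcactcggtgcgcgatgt

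Both windows were rich in G and C, at 72.4% for Irs1 and 72.8% for Irs2. Each held 1 E-box, which began 115 bases before the start in Irs1 and 44 bases before it in Irs2. The box lies in gtcacgtgtt, a run that both windows share. Of 32851 RefSeq promoter windows of the same length, 6.02% held CACGTG. The forkhead element GTAAACA, found in 3.17% of the windows on either strand, was in neither. The nuclear receptor half-site AGGTCA, found in 14.0%, and its direct repeat with 1 base between and at most 2 mismatches, found in 3.24% and overlapping the half-site by construction, were in neither as well. None of the 4 motifs was found in the windows of Akt2 (4 starts), Pik3r1 (2 starts) or Lnpep. A match or its absence describes the letters of these windows alone.

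The libraries held between 4027152 and 7474654 counts, and levels below are in CPM, counts per 1000000 counts of a library after TMM scaling of its size. TBT library 4 stood apart from the other TBT libraries: its counts differed from theirs by a chi-square of 41.5 to 53.3 per degree of freedom, against 4.66 to 9.37 among TBT libraries 1 to 3. Among ROSI libraries the same measure was 10.5 between libraries 1 and 2, 5.84 between 3 and 4, and 19.9 to 31.6 across these pairs. DMSO libraries ran between 4.97, for libraries 1 and 2, and 23.9, for libraries 2 and 4. The share of counts on the ribosomal RNA gene Rn45s was 6.85% in TBT library 4, 0.399% to 0.670% in the other TBT libraries, 1.36% to 9.27% in ROSI libraries and 2.64% to 6.18% in DMSO libraries. DMSO library 3 stood apart by the sum of its adipocyte markers, though not by each of them. The summed level of 8 such markers (Adipoq, Plin1, Fabp4, Cidec, Lpl, Cd36, Cebpa and Pparg, all detected in every group) was 2843 to 3931 CPM in TBT libraries, 5553 to 7131 CPM in ROSI libraries and 1122 to 2408 CPM in DMSO libraries, with 2408 CPM in DMSO library 3 and 1334 CPM in the next highest DMSO library. Adipoq, the adipocyte hormone adiponectin, did not follow this order: it was at 1.74 to 3.57 CPM in TBT, 11.8 to 16.0 CPM in ROSI and 7.05 to 15.0 CPM in DMSO libraries. Cebpa and Pparg did not follow it either. Median Cebpa was 21.8 CPM in TBT, 55.5 CPM in ROSI and 22.1 CPM in DMSO libraries. Median Pparg was 83.7 CPM in TBT, 81.8 CPM in ROSI and 63.7 CPM in DMSO libraries. Cidec overlapped between TBT and DMSO libraries, and Lpl between TBT and ROSI libraries. Lpl was the largest part of the sum in every library, with medians of 2284, 3265 and 931 CPM in TBT, ROSI and DMSO libraries. The summed level of 8 mesenchymal stromal markers ran the other way from the adipocyte sum, at 1349 to 1819 CPM in TBT, 759 to 845 CPM in ROSI and 2099 to 2831 CPM in DMSO libraries. Pdgfra and Ly6a made up most of that sum. Vcam1 did not follow it, with medians of 82.8 CPM in TBT, 73.8 CPM in ROSI and 64.5 CPM in DMSO libraries, and Thy1, Nt5e and Cd44 overlapped between the groups. Pdgfrb overlapped between TBT and DMSO libraries, and Eng was at most 0.95 CPM in any library. The sum of 6 osteoblast markers was 209 to 285 CPM in TBT, 145 to 213 CPM in ROSI and 217 to 272 CPM in DMSO libraries, nearly all of it Runx2 and Alpl, with Sp7, Bglap, Bglap2 and Ibsp at or near 0. Skeletal muscle, the other main tissue of GLUT4, left little trace: 7 muscle genes summed to 0.856 to 2.83 CPM in TBT, 1.00 to 1.81 CPM in ROSI and 1.58 to 6.65 CPM in DMSO libraries, with Ckm at 0 in all 12 libraries. Markers of macrophages and leukocytes summed to at most 20.8 CPM, and endothelial markers to at most 9.36 CPM, in any library. The sum over 1504 sensory receptor genes (olfactory, vomeronasal, trace amine and taste receptors) was 121 to 209 CPM in TBT, 63.4 to 73.4 CPM in ROSI and 290 to 750 CPM in DMSO libraries. The mean over these genes was at most 0.499 CPM in any library, and 8 of them passed the filter on low counts. The part of these differences in the results was not tested.

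**Figure D1:**
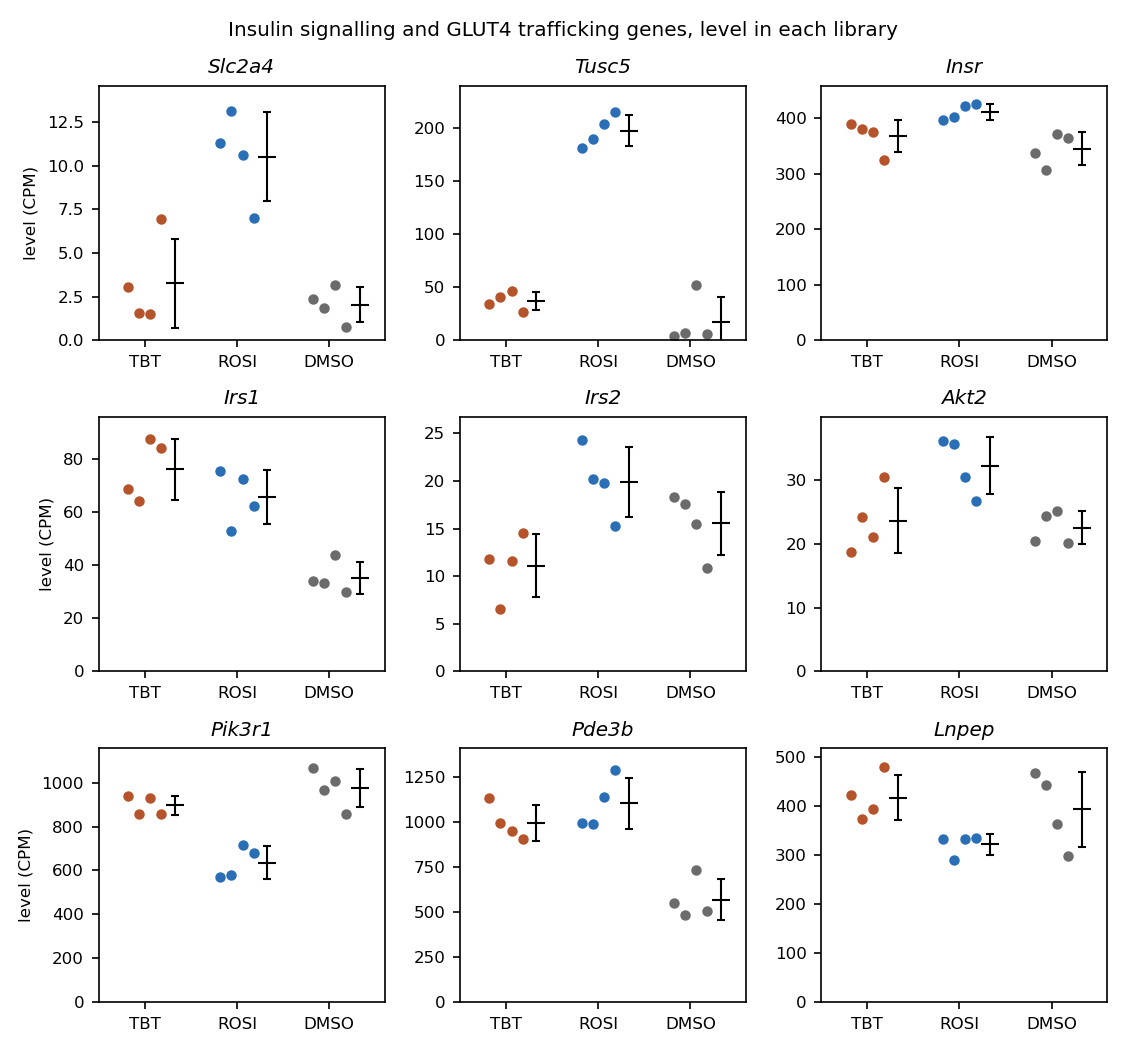
Level of each of the 9 genes in each library (CPM, linear axes from 0), for TBT, ROSI and DMSO cells; each point is 1 library, in the order of its number, and the bar beside the points is the mean with its SD (n = 4; the DMSO bar of Tusc5 is cut at 0). Slc2a4 and Tusc5 stood highest in ROSI cells, Irs1 and Pde3b were high in both TBT and ROSI cells, and Pik3r1 was lowest in ROSI cells.

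Insr encodes the insulin receptor, a tyrosine kinase. It was at 390, 380, 375 and 325 CPM in the TBT libraries, 396, 402, 422 and 425 CPM in the ROSI libraries and 337, 306, 372 and 364 CPM in the DMSO libraries. All ROSI libraries lay above all TBT and all DMSO libraries, though by little, and TBT and DMSO libraries overlapped. On the log2 scale the fold change was 0.25 ± 0.11 (SE) for ROSI against DMSO, 0.09 ± 0.11 for TBT against DMSO and -0.16 ± 0.11 for TBT against ROSI, and none of the 3 passed the threshold of the whole table with edgeR. With DESeq2 the value for ROSI against DMSO passed it (0.28 ± 0.097). Per kilobase of exon, Insr made up 55.6% ± 4.33 of the sum of Insr and Igf1r, the receptor of the related growth factor IGF1, in TBT cells, 52.9% ± 4.16 in ROSI cells and 47.4% ± 1.19 in DMSO cells (mean ± SD, n = 4 each). The TBT and ROSI shares overlapped, while the lowest TBT share, 49.7%, lay above and the lowest ROSI share, 47.7%, lay below the highest DMSO share, 48.8%. Igf1r was at 358 ± 35.1 CPM in TBT, 448 ± 61.1 CPM in ROSI and 466 ± 24.9 CPM in DMSO cells. The share thus reflects the level of Igf1r as well as that of Insr.

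Irs1 and Irs2 encode the docking proteins that link the receptor to phosphoinositide 3-kinase. Irs1 was at 68.6, 64.3, 87.5 and 84.2 CPM in the TBT libraries, 75.5, 53.1, 72.4 and 62.2 CPM in the ROSI libraries and 34.0, 33.5, 43.9 and 29.9 CPM in the DMSO libraries. Every TBT and ROSI library lay above every DMSO library, and TBT and ROSI libraries overlapped. For Irs1 the log2 fold change was 0.89 ± 0.16 for ROSI against DMSO, 1.10 ± 0.16 for TBT against DMSO and 0.21 ± 0.15 for TBT against ROSI. Irs2 was at 11.8, 6.56, 11.6 and 14.6 CPM in the TBT libraries, 24.3, 20.2, 19.8 and 15.2 CPM in the ROSI libraries and 18.3, 17.5, 15.5 and 10.9 CPM in the DMSO libraries. All TBT libraries lay below all ROSI libraries, the nearest pair being 14.6 CPM in TBT library 4 and 15.2 CPM in ROSI library 4, while the DMSO libraries overlapped both groups. For Irs2 it was -0.84 ± 0.23 for TBT against ROSI, 0.36 ± 0.22 for ROSI against DMSO and -0.48 ± 0.23 for TBT against DMSO. Without ROSI library 1 the value for TBT against ROSI was -0.74 ± 0.24 and no longer passed the threshold of the whole table, and without TBT library 4 the value for TBT against DMSO was -0.61 ± 0.23 and passed it.

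The balance of the substrates therefore differed between the groups. There were 5.82, 9.79, 7.57 and 5.78 Irs1 reads per Irs2 read in the TBT libraries, 3.10, 2.62, 3.66 and 4.08 in the ROSI libraries and 1.86, 1.91, 2.84 and 2.74 in the DMSO libraries. The lowest TBT ratio lay above the highest ROSI ratio, and ROSI and DMSO ratios overlapped. Per kilobase of exon, Irs1 made up 82.8% ± 3.44 of the sum of both substrates in TBT cells, 69.5% ± 4.10 in ROSI cells and 61.2% ± 5.39 in DMSO cells. Irs1 and Irs2 are each crossed by an annotated exon on the other strand, and the libraries keep no strand, so reads of the partner cannot be told apart. The other 7 genes had no overlapping exon of another gene in GENCODE M21.

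Pik3r1 encodes the main regulatory subunit of phosphoinositide 3-kinase, which holds the catalytic subunit and docks on the substrates. It was at 939, 856, 930 and 859 CPM in the TBT libraries, 568, 580, 716 and 681 CPM in the ROSI libraries and 1066, 967, 1006 and 858 CPM in the DMSO libraries. Every ROSI library lay below every TBT and every DMSO library, and TBT and DMSO libraries overlapped. Its log2 fold change was -0.62 ± 0.12 for ROSI against DMSO, -0.12 ± 0.12 for TBT against DMSO and 0.49 ± 0.12 for TBT against ROSI. Among the 3 genes Pik3r1, Pik3r2 and Pik3r3, Pik3r1 made up 90.1% ± 0.988 of the sum per kilobase in TBT cells, 87.2% ± 1.46 in ROSI cells and 89.9% ± 0.923 in DMSO cells. It was thus the main regulatory subunit gene of its family in all 3 groups.

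Akt2 encodes the AKT kinase that insulin uses to move GLUT4. It was at 18.8, 24.1, 21.0 and 30.4 CPM in the TBT libraries, 36.1, 35.5, 30.4 and 26.7 CPM in the ROSI libraries and 20.4, 24.3, 25.1 and 20.1 CPM in the DMSO libraries. The ROSI libraries lay above the DMSO libraries, with TBT library 4 inside the ROSI range and the other TBT libraries inside or below the DMSO range. For Akt2 the log2 fold change was 0.51 ± 0.17 for ROSI against DMSO, 0.06 ± 0.17 for TBT against DMSO and -0.45 ± 0.17 for TBT against ROSI. The value for ROSI against DMSO no longer passed the threshold without ROSI library 1 (0.47 ± 0.18), ROSI library 2 (0.46 ± 0.18), DMSO library 1 (0.47 ± 0.18) or DMSO library 4 (0.46 ± 0.18). The value for TBT against ROSI passed it without TBT library 4 (-0.59 ± 0.16) or without ROSI library 4 (-0.55 ± 0.18). With all libraries it passed with upper-quartile factors (-0.49 ± 0.17), with DESeq2 (-0.46 ± 0.18) and with limma on the deposited log2 values (-0.33 ± 0.12), while ROSI against DMSO did not pass with upper-quartile factors (0.48 ± 0.17).

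**Figure D2:**
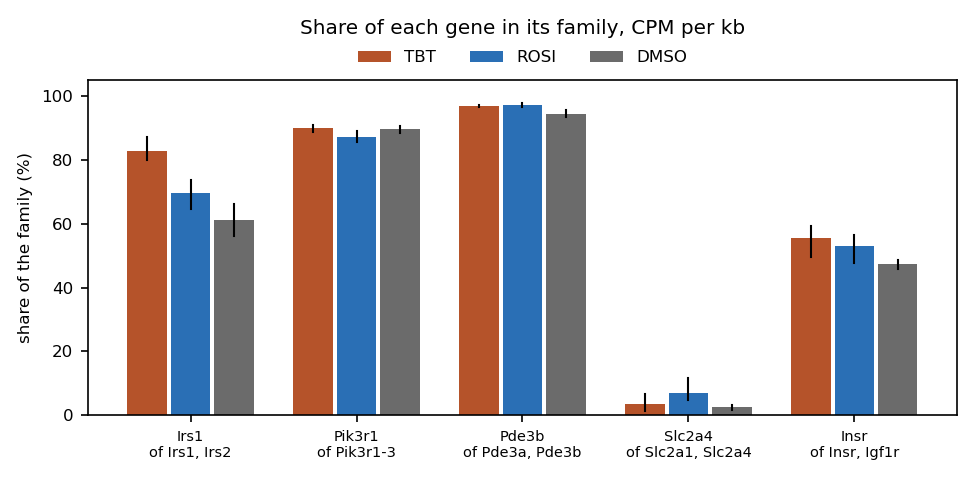
Share of Irs1, Pik3r1, Pde3b, Slc2a4 and Insr in the summed level of the named family members (%, CPM per kilobase of exon), for TBT, ROSI and DMSO cells; bars are means of 4 libraries and lines run from the lowest to the highest library. The share of Irs1 was 82.8% in TBT, 69.5% in ROSI and 61.2% in DMSO cells, while Pde3b and Pik3r1 held at least 85.5% of their families in every library.

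Pde3b encodes the phosphodiesterase that breaks down cyclic AMP when insulin signals and so restrains lipolysis. It was at 1131, 993, 946 and 905 CPM in the TBT libraries, 994, 987, 1137 and 1287 CPM in the ROSI libraries and 548, 485, 734 and 506 CPM in the DMSO libraries. All TBT and ROSI libraries lay above all DMSO libraries, of which DMSO library 3 was the highest, and TBT and ROSI libraries overlapped. The log2 fold change was 0.95 ± 0.15 for ROSI against DMSO, 0.81 ± 0.15 for TBT against DMSO and -0.15 ± 0.15 for TBT against ROSI. Pde3b made up 96.9% ± 0.281 of the sum of Pde3a and Pde3b per kilobase in TBT cells, 97.3% ± 0.539 in ROSI cells and 94.6% ± 0.962 in DMSO cells. Isobutylmethylxanthine, which inhibits this enzyme, was in the medium of all 3 groups.

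Lnpep encodes an aminopeptidase known as IRAP, a resident of GLUT4 vesicles that moves to the surface with them. It was at 422, 373, 394 and 479 CPM in the TBT libraries, 332, 290, 333 and 334 CPM in the ROSI libraries and 467, 443, 364 and 299 CPM in the DMSO libraries. The TBT libraries lay above the ROSI libraries, and the DMSO libraries spanned both. Its log2 fold change was -0.29 ± 0.14 for ROSI against DMSO, 0.09 ± 0.14 for TBT against DMSO and 0.37 ± 0.14 for TBT against ROSI. None passed the threshold with edgeR, while TBT against ROSI passed it with DESeq2 (0.36 ± 0.14). Without DMSO library 4 the value for ROSI against DMSO was -0.40 ± 0.13 and that for TBT against ROSI 0.37 ± 0.12, and both passed it. Lnpep thus stood apart from Slc2a4 and Tusc5, the other vesicle proteins of the set, in having no higher level in ROSI cells.

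Tusc5 encodes a membrane protein of GLUT4 vesicles that is enriched in fat cells and helps GLUT4 return to its store. It was at 34.5, 40.9, 46.8 and 26.5 CPM in the TBT libraries, 182, 191, 205 and 215 CPM in the ROSI libraries and 4.28, 7.25, 52.2 and 6.32 CPM in the DMSO libraries. The ROSI libraries lay far above all others, and DMSO library 3, at 52.2 CPM, lay above all 4 TBT libraries while the other DMSO libraries lay below them. The log2 fold change was 3.42 ± 0.52 for ROSI against DMSO and -2.41 ± 0.49 for TBT against ROSI. It was 1.01 ± 0.51 for TBT against DMSO and did not pass the threshold with edgeR. With all libraries kept it passed with no filter on low counts (1.01 ± 0.29) and with limma on the deposited log2 values (1.08 ± 0.32). The value moved most with DMSO library 3: without it, TBT against DMSO was 2.62 ± 0.22 and passed the threshold, and ROSI against DMSO was 5.06 ± 0.23.

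Slc2a4 encodes GLUT4 itself. It had the fewest reads of the 9 genes in every library, with 17, 8, 7 and 32 reads in the TBT libraries, 45, 83, 82 and 35 reads in the ROSI libraries and 10, 8, 23 and 5 reads in the DMSO libraries. These gave 3.04, 1.54, 1.50 and 6.96 CPM in the TBT libraries, 11.3, 13.1, 10.6 and 7.02 CPM in the ROSI libraries and 2.38, 1.87, 3.18 and 0.790 CPM in the DMSO libraries. The ROSI libraries lay above all TBT and DMSO libraries, but TBT library 4, at 6.96 CPM, came close to ROSI library 4, at 7.02 CPM. The log2 fold change was 2.34 ± 0.43 for ROSI against DMSO, 0.63 ± 0.48 for TBT against DMSO and -1.70 ± 0.41 for TBT against ROSI. Without TBT library 4 the value for TBT against DMSO was 0.0039 ± 0.44 and that for TBT against ROSI was -2.34 ± 0.37. Next to GLUT1 (Slc2a1), the transporter of basal glucose uptake, GLUT4 was a small part at the RNA level: Slc2a4 made up 3.56% ± 2.26 of the sum of Slc2a1 and Slc2a4 per kilobase in TBT cells, 7.04% ± 3.06 in ROSI cells and 2.43% ± 0.754 in DMSO cells.

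Tusc5 and Slc2a4 both ran with the adipocyte markers in part. DMSO library 3, the highest DMSO library in the summed adipocyte markers, was also the highest DMSO library for both genes. Lpl, Cd36, Fabp4, Cidec, Plin1 and Cebpa were highest in that library among the DMSO libraries. Adipoq was lowest there, at 7.05 CPM, and Pparg, at 56.8 CPM, lay within the range of the other DMSO libraries. TBT library 4 was the lowest TBT library in the summed markers and in Tusc5, but the highest in Slc2a4. Its low sum lay mainly in Lpl, at 1495 CPM against 2104 to 2640 CPM in the other TBT libraries. Plin1 and Fabp4 were also lowest there, while Cidec was highest, at 222 CPM against 115 to 136 CPM. Adipoq, Cd36, Cebpa and Pparg lay within the range of the other TBT libraries. In TBT libraries 1 to 3 the summed markers were above those of every DMSO library, while their Slc2a4, at 1.50 to 3.04 CPM, lay within the DMSO range of 0.790 to 3.18 CPM. In bulk RNA, fewer fat cells and less RNA per fat cell cannot be told apart, and the part of cell composition in these levels was not tested.

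**Figure D3:**
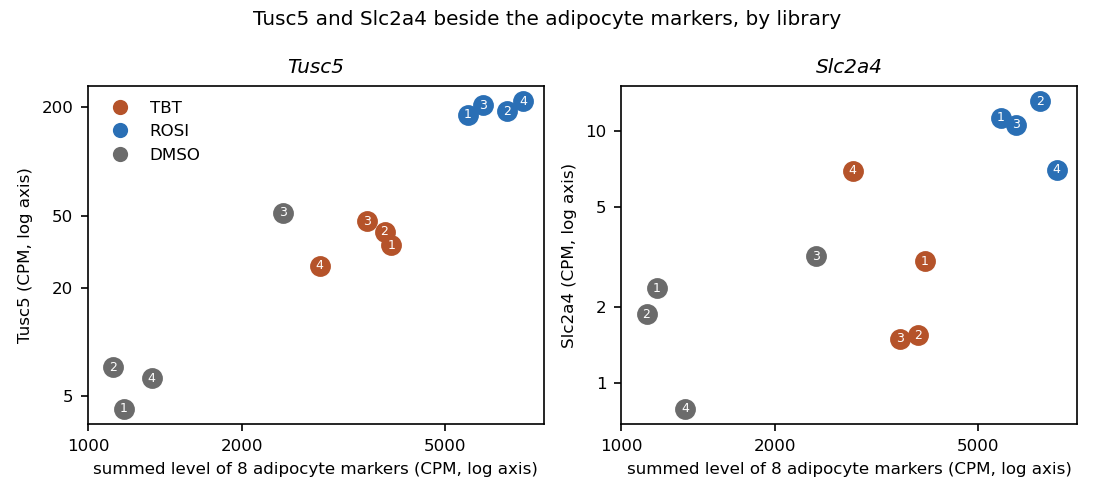
Level of Tusc5 (left) and Slc2a4 (right) in each library against the summed level of 8 adipocyte markers (both in CPM on log axes); points are libraries, coloured by treatment and marked with the library number. DMSO library 3 sat at 2408 CPM of markers and 52.2 CPM of Tusc5, beside the TBT libraries and away from the other DMSO libraries, while TBT libraries 1 to 3 sat at DMSO levels of Slc2a4.

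Per kilobase of exon, which allows genes to be ranked, Pde3b and Pik3r1 were the highest of the 9 genes in each group. In TBT cells Pde3b (151 ± 15.0 CPM per kilobase) was followed by Pik3r1 (118 ± 5.93), Insr (39.3 ± 3.10), Lnpep (34.6 ± 3.82), Tusc5 (11.3 ± 2.64), Irs1 (8.33 ± 1.25), Akt2 (4.88 ± 1.05), Irs2 (1.76 ± 0.527) and Slc2a4 (1.16 ± 0.915). In ROSI cells the order was Pde3b (168 ± 21.5 CPM per kilobase), Pik3r1 (84.1 ± 9.70), Tusc5 (60.0 ± 4.55), Insr (43.9 ± 1.53), Lnpep (26.7 ± 1.77), Irs1 (7.20 ± 1.12), Akt2 (6.67 ± 0.927), Slc2a4 (3.74 ± 0.910) and Irs2 (3.15 ± 0.587). In DMSO cells the order was Pik3r1 (129 ± 11.6 CPM per kilobase), Pde3b (86.5 ± 17.2), Insr (36.8 ± 3.17), Lnpep (32.6 ± 6.37), Tusc5 (5.31 ± 7.02), Akt2 (4.66 ± 0.542), Irs1 (3.86 ± 0.660), Irs2 (2.46 ± 0.525) and Slc2a4 (0.732 ± 0.356). The libraries of some neighbours in these orders overlapped and are not ranked against each other. These were Insr and Lnpep, Tusc5 and Irs1, and Irs2 and Slc2a4 in TBT cells, Irs1 and Akt2, and Slc2a4 and Irs2 in ROSI cells, and Insr and Lnpep, Tusc5 and Akt2, and Akt2 and Irs1 in DMSO cells. The place of Tusc5 in DMSO cells is loose: its DMSO libraries ran between 1.30 and 15.8 CPM per kilobase and also overlapped those of Irs2.

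**Figure D4:**
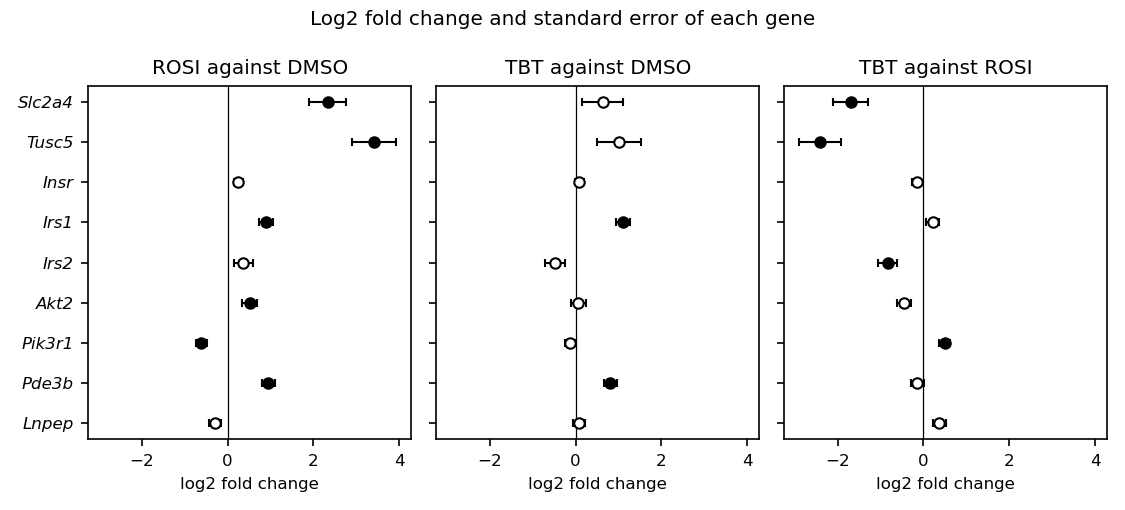
Log2 fold change of each of the 9 genes in the 3 comparisons (points, with the SE as bars; edgeR); filled points passed the adjusted threshold of 0.05 over all 12323 genes and open points did not. Slc2a4 and Tusc5 had the widest bars and the largest positive values in ROSI against DMSO (2.34 and 3.42), and both were at negative values in TBT against ROSI. The fill is a description and not a test of these genes, which were chosen with these comparisons known.

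The genes with the pattern most like Slc2a4 and Tusc5 were sought among 10232 genes with a mean of at least 5 CPM, by the root mean square difference of mean-centred log2 CPM over the 12 libraries. For Slc2a4 these were Mc5r (0.40), a melanocortin receptor, Pnpla2 (0.41), the lipase that starts the breakdown of stored triglyceride, Pycr1 (0.47), an enzyme of proline synthesis, Apoc1 (0.50), an apolipoprotein, and Agpat2 (0.50), an enzyme of triglyceride synthesis. Pnpla2 averaged 132 ± 39.1 CPM in TBT cells, 412 ± 42.7 CPM in ROSI cells and 104 ± 49.6 CPM in DMSO cells (SD, n = 4 each). For Tusc5 they were Rdh18-ps (0.51), a pseudogene, Abcg1 (0.53), a cholesterol exporter, Fabp4 (0.65), the fatty acid binding protein of adipocytes, Ephx2 (0.66), an epoxide hydrolase, and Rdh16 (0.66), a retinol dehydrogenase. Abcg1 averaged 29.9 ± 7.68 CPM in TBT cells, 85.7 ± 9.58 CPM in ROSI cells and 11.3 ± 14.6 CPM in DMSO cells. In DMSO cells the spread was also wide for Rdh18-ps (2.63 ± 3.24 CPM), Ephx2 (8.74 ± 8.36 CPM), Rdh16 (8.70 ± 10.8 CPM) and Tusc5 itself (17.5 ± 23.2 CPM). Fabp4 was at 314 CPM in DMSO library 3, against 63.8 to 126 CPM in the other DMSO libraries. The part of DMSO library 3 in the likeness to Tusc5 was not tested. Slc2a4 and Tusc5 differed from each other by 1.26 on the same measure, and neither was among the 5 nearest genes of the other. The measure counts the size of a change as well as its direction. On it Irs2 (0.88), Akt2 (0.90), Pde3b (0.94), Irs1 (1.00), Insr (1.08) and Lnpep (1.23) were nearer to Slc2a4 than Tusc5 was. Pik3r1 (1.38) was further, and Slc2a4 was the nearest of the set to Tusc5. Rdh18-ps and Rdh16 belong to a family of similar genes, and reads that fit several copies may have been shared among them.

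The rest of the pathway was followed through 131 other genes in 9 lists by role, of which 118 were tested. In ROSI against DMSO cells 12 of the 118 rose (10.2%) and 13 fell (11.0%), close to the 10.0% and 12.6% of all genes, and the median log2 fold change was 0.01 in both. In TBT against DMSO cells 10 rose (8.47%) and 12 fell (10.2%), against 8.22% and 7.03% of all genes, with a median of -0.04 against -0.01 over all genes. In TBT against ROSI cells 19 were higher (16.1%) and 15 were lower (12.7%) in TBT cells, against 12.8% and 11.1% of all genes. The median was -0.05 against 0.02 over all genes. The counts of each list below are to be set beside these shares of all genes, and no list was tested as a set. The counts over the 118 genes moved with single libraries. In TBT against DMSO the 12 lower genes became 3 to 7 without TBT library 1, 2 or 3, DMSO library 1, 2 or 3, or ROSI library 1, and 27 without TBT library 4, while the 10 higher genes became 6 without TBT library 3 and 21 without TBT library 4. In TBT against ROSI the 19 higher genes became 9 to 12 without TBT library 1 or 3, any 1 ROSI library or DMSO library 3, and the 15 lower genes became 9 without TBT library 1 or ROSI library 1 and 32 without TBT library 4. In ROSI against DMSO the 13 lower genes became 8 without ROSI library 4. The genes named below, apart from those said to be picked out later, kept their call when any 1 of the 12 libraries was left out.

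Among the inhibitors of insulin signalling, 2 of 13 tested genes rose and 7 fell in ROSI against DMSO cells, with a median log2 fold change of -0.51. Of all tested genes 10.0% rose and 12.6% fell there. In TBT against DMSO cells 4 fell and the rest did not pass (median -0.24), and in TBT against ROSI cells 4 were higher and 1 was lower in TBT cells (median 0.11). Grb14, an adaptor that blocks the active receptor, fell to 25.2 ± 2.38 CPM in ROSI cells, against 58.0 ± 5.94 CPM in DMSO cells (edgeR adjusted p = 2.88e-05). Enpp1, a membrane phosphodiesterase that binds the receptor, was at 79.1 ± 6.05 CPM in TBT cells, 73.3 ± 15.8 CPM in ROSI cells and 158 ± 15.5 CPM in DMSO cells. It fell in both comparisons with DMSO cells (edgeR adjusted p = 0.000481 for TBT and 3.41e-05 for ROSI). Trib2, a tribbles pseudokinase, fell in ROSI against DMSO cells by 0.85 ± 0.12 on the log2 scale (edgeR adjusted p = 4.42e-05). Socs3, a suppressor of cytokine signalling that also binds the receptor, was at 11.6 ± 1.53 CPM in TBT cells, 13.1 ± 1.42 CPM in ROSI cells and 22.6 ± 1.80 CPM in DMSO cells. It fell in both comparisons with DMSO cells (edgeR adjusted p = 0.00098 for TBT and 0.00119 for ROSI), and TBT against ROSI did not pass. Not every inhibitor fell. Trib3, a pseudokinase that binds AKT and is induced by cell stress, rose in ROSI cells, with 5.19 ± 4.15 CPM in TBT, 27.4 ± 6.53 CPM in ROSI and 5.74 ± 2.72 CPM in DMSO cells (edgeR adjusted p = 0.000402 for ROSI against DMSO and 0.000423 for TBT against ROSI). In TBT against ROSI cells its log2 fold change, -2.39 ± 0.40, was -3.10 without TBT library 2. Grb10, a relative of Grb14, rose to 358 ± 26.6 CPM in ROSI cells, against 241 ± 8.61 CPM in DMSO cells (edgeR adjusted p = 0.0108). Grb14 and Trib2 were higher in TBT than in ROSI cells, by 0.64 ± 0.16 and 0.53 ± 0.12 on the log2 scale (edgeR adjusted p = 0.0087 and 0.00386).

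Among receptor partners and adaptors, 2 of 11 tested genes rose and 1 fell in ROSI against DMSO cells, 2 rose and 3 fell in TBT against DMSO cells, and 2 were higher and 3 were lower in TBT than in ROSI cells. Sh2b2, the adaptor APS that links the receptor to CBL, was at a low level and highest in ROSI cells, with 4.05 ± 0.992 CPM in TBT, 8.71 ± 0.696 CPM in ROSI and 3.74 ± 0.856 CPM in DMSO cells (edgeR adjusted p = 0.00113 for ROSI against DMSO and 0.00317 for TBT against ROSI). Gab1, a docking protein related to the substrates, was at 242 ± 19.9 CPM in TBT, 140 ± 16.0 CPM in ROSI and 166 ± 4.07 CPM in DMSO cells. It rose in TBT against DMSO cells (edgeR adjusted p = 0.00639) and was higher in TBT than in ROSI cells (edgeR adjusted p = 0.000138). Cav1, the scaffold of the caveolae that hold the receptor in fat cells, was at 417 ± 33.4 CPM in TBT and 289 ± 12.3 CPM in ROSI cells (edgeR adjusted p = 0.00659).

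Among the kinases around AKT and mTOR and their partners and regulators, 4 of 14 tested genes fell in ROSI against DMSO cells. The rest did not pass there, while 4 were higher and 3 were lower in TBT than in ROSI cells. In TBT against DMSO cells 0 of 14 passed with edgeR, as with DESeq2 and limma, and 0 had an unadjusted p under 0.05. Mtor, the kinase of the mTOR growth complexes, fell to 131 ± 7.65 CPM in ROSI cells, against 204 ± 28.9 CPM in DMSO cells (edgeR adjusted p = 0.00223). Deptor, an inhibitor of those complexes, was at 459 ± 47.3 CPM in TBT and 309 ± 25.4 CPM in ROSI cells (edgeR adjusted p = 0.00216). Among the other subunits of phosphoinositide 3-kinase and the lipid phosphatases, 1 of 7 rose and 1 fell in TBT against DMSO cells, and 1 was higher in TBT than in ROSI cells. In ROSI against DMSO cells 0 of 7 passed with edgeR, 1 rose with DESeq2 and 0 passed with limma, and by edgeR 1 was higher and 1 was lower at an unadjusted p under 0.05.

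Among the outputs of AKT and insulin, 2 of 12 tested genes rose in ROSI against DMSO cells, 2 rose in TBT against DMSO cells, and 2 were higher and 2 were lower in TBT than in ROSI cells, while the rest did not pass. Lipe, the hormone-sensitive lipase that insulin restrains through PDE3B, was at 27.1 ± 7.97 CPM in TBT, 48.4 ± 8.39 CPM in ROSI and 20.1 ± 4.22 CPM in DMSO cells. It rose in ROSI against DMSO cells (edgeR adjusted p = 0.000198) and was lower in TBT than in ROSI cells (edgeR adjusted p = 0.00663). Eif4ebp1, a translation repressor that mTOR switches off, was also highest in ROSI cells, with 46.9 ± 9.24 CPM in TBT, 94.6 ± 17.8 CPM in ROSI and 49.4 ± 10.7 CPM in DMSO cells (edgeR adjusted p = 0.00104 for ROSI against DMSO and 0.000822 for TBT against ROSI). Foxo1, the transcription factor that AKT keeps out of the nucleus, rose to 450 ± 27.6 CPM in TBT cells, against 286 ± 17.0 CPM in DMSO cells (edgeR adjusted p = 0.00271).

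Of the 14 tested genes of GLUT4 vesicle cargo and sorting, 1 rose in ROSI against DMSO cells, 1 rose and 1 fell in TBT against DMSO cells, and 1 was higher and 1 was lower in TBT than in ROSI cells. Sort1, or sortilin, which sorts GLUT4 into its storage vesicles, was at 29.0 ± 3.09 CPM in TBT, 59.6 ± 3.35 CPM in ROSI and 16.6 ± 5.06 CPM in DMSO cells. It rose in both comparisons with DMSO cells (edgeR adjusted p = 0.00967 for TBT and 1.87e-06 for ROSI) and was lower in TBT than in ROSI cells (edgeR adjusted p = 0.000423). Of 29 tested GTPases, motors and fusion proteins of these vesicles, 3 rose and 1 fell in ROSI against DMSO cells, 3 rose and 2 fell in TBT against DMSO cells, and 5 were higher and 3 were lower in TBT than in ROSI cells. Tbc1d4, or AS160, the GTPase-activating protein through which AKT2 releases the vesicles, rose to 55.5 ± 7.38 CPM in ROSI cells, against 35.8 ± 6.42 CPM in DMSO cells (edgeR adjusted p = 0.00626). Ralgapa2, a subunit of the RalA GTPase-activating complex that AKT also inhibits, was at 91.4 ± 5.60 CPM in TBT, 150 ± 4.09 CPM in ROSI and 79.1 ± 12.0 CPM in DMSO cells, and was called in ROSI against DMSO and in TBT against ROSI (edgeR adjusted p = 2.83e-05 and 0.000482). Dennd4c, an exchange factor for RAB10, rose to 238 ± 43.9 CPM in ROSI cells, against 143 ± 19.8 CPM in DMSO cells (edgeR adjusted p = 0.00109). Ehbp1, which links EHD proteins to the cytoskeleton, was at 75.5 ± 12.0 CPM in TBT, 51.4 ± 5.79 CPM in ROSI and 92.5 ± 10.1 CPM in DMSO cells, and was called in ROSI against DMSO and in TBT against ROSI (edgeR adjusted p = 0.000254 and 0.00924). Rab14, a GTPase of early endosomes, and Myo5a, a vesicle motor, rose in TBT against DMSO cells by 0.52 ± 0.11 and 0.53 ± 0.13 on the log2 scale (edgeR adjusted p = 0.00763 and 0.011). Rab13 and Stxbp4 were higher in TBT than in ROSI cells by 1.42 ± 0.29 and 0.56 ± 0.14, while Rab31 was lower, at -0.66 ± 0.15 (edgeR adjusted p = 0.00212, 0.00844 and 0.00407). Rab13 was at a low level, with 18.8 ± 6.65 CPM in TBT, 6.96 ± 1.94 CPM in ROSI and 10.4 ± 2.87 CPM in DMSO cells. Neither of its comparisons with DMSO cells passed.

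Of the other glucose transporters, 6 of 10 were tested. Slc2a1 rose to 171 ± 41.9 CPM in ROSI cells, against 92.1 ± 27.4 CPM in DMSO cells (edgeR adjusted p = 0.0102), and was the only 1 of the 6 called in that comparison. In TBT cells 1 of the 6 fell against DMSO cells, and 2 were lower than in ROSI cells. In the Ras-MAPK branch, the growth arm of insulin signalling, 1 of 12 tested genes rose in each comparison with DMSO cells. In TBT against ROSI cells 0 of 12 passed with edgeR, as with DESeq2 and limma, and 2 were higher at an unadjusted p under 0.05 with edgeR.

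Some of the genes named above also passed in a comparison not given for them, and these values, like that of Socs3 in ROSI against DMSO cells, were picked out after they were seen (edgeR, log2 scale). Those for TBT against DMSO cells were Cav1 (0.48 ± 0.13), Dennd4c (0.51 ± 0.14), Grb14 (-0.56 ± 0.16) and Rab31 (-0.52 ± 0.15), and each lost its call when one of several libraries was left out. In ROSI against DMSO cells Deptor fell (-0.36 ± 0.12). In TBT against ROSI cells Mtor (0.39 ± 0.14), Rab14 (0.39 ± 0.11) and Myo5a (0.36 ± 0.13) were higher, and Slc2a1 (-0.76 ± 0.24) was lower but lost its call without TBT library 1 or 2 or ROSI library 1 or 3. How these calls of Socs3, Deptor, Mtor, Rab14 and Myo5a move without single libraries is not given here. That of Mtor lay near the threshold (edgeR adjusted p = 0.0447), and its TBT and ROSI libraries overlapped.

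**Figure D5:**
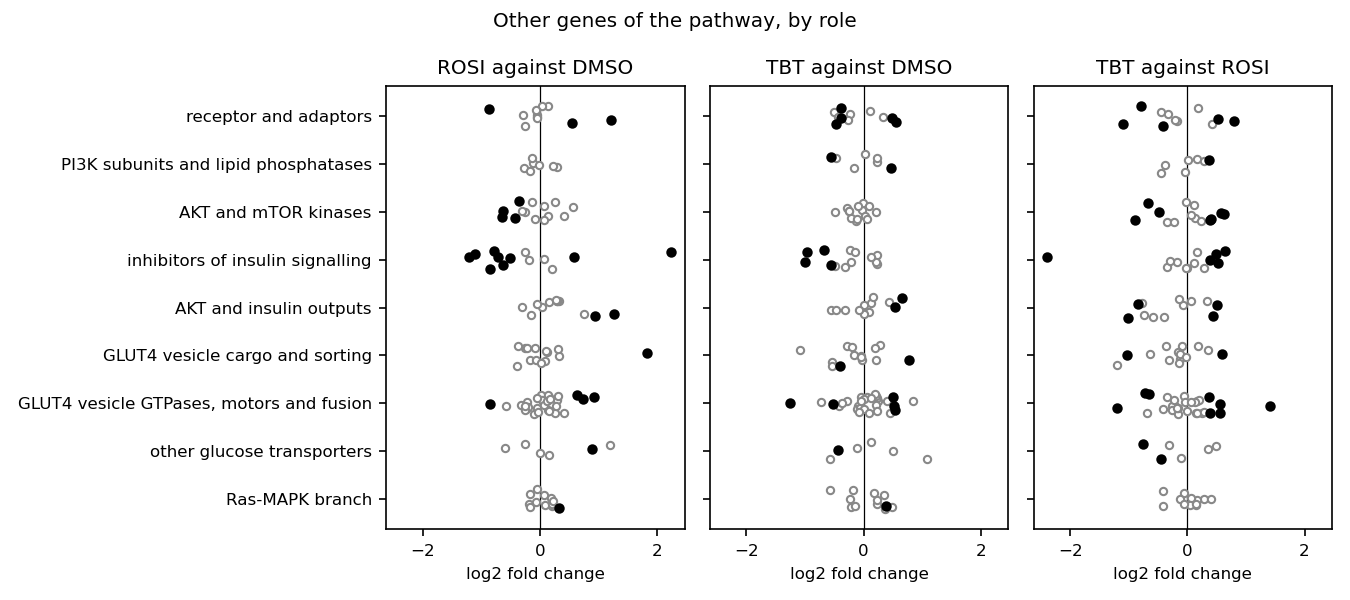
Log2 fold change of 118 other genes of the pathway by role, in the 3 comparisons (1 point per gene; vertical position within a role is only spread for legibility); filled points passed the adjusted threshold of 0.05 over all 12323 genes (edgeR). Inhibitors of insulin signalling lay mostly left of 0 in ROSI against DMSO, with 7 lower and 2 higher of 13, and Trib3 is the point at the far right of that role (2.24). Of all tested genes 12.6% were lower and 10.0% were higher in that comparison.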

How the data were processed

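RNA was measured in 12 libraries, 4 for each treatment. After depletion of ribosomal RNA, non-directional single reads of 50 nt were made on a SOLiD sequencer, per the labels' protocols, so reads of overlapping genes on opposite strands were not separated. The authors deposited raw counts per gene symbol. They also deposited regularized-log values, which are log2 values adjusted for library size and shrunken. The submitters' processing notes name mm9 as the build, and FastQC, SAMtools and DESeq2 as tools with no version. Which aligner, counter and annotation made the counts is not given in the sources used.

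Counts were fitted with edgeR 4.0.16 (R 4.3.3): filterByExpr, TMM factors, 1 quasi-likelihood model over all 12 libraries, and Benjamini-Hochberg adjustment over all 12323 tested genes with a threshold of 0.05. The SE of a log2 fold change was derived from its F statistic. CPM uses TMM-scaled library sizes. Levels per kilobase use merged exon lengths of GENCODE M21. Counts under about 10 carry large counting error, as for Slc2a4. No pair of libraries of a group looked like copies, the lowest chi-square per degree of freedom being 4.66 over genes with at least 10 counts.

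The 9 genes, the 9 lists of other pathway genes, the marker lists and the sensory receptor sum were chosen with earlier results of these data known. The rule named, for each list and comparison, up to 3 called genes with the smallest p in each direction, 71 gene and comparison pairs in all. The text names the 39 that kept their call in each fit that left out 1 library (16 of 20 for ROSI and 7 of 21 for TBT, each against DMSO, and 16 of 30 for TBT against ROSI), a choice made after their values were seen, apart from an item that is not reported here. The rest enter the counts. Alternatives were edgeR with size factors from DESeq2 or by the upper quartile, DESeq2 1.42.0, no filter, a fit of the 2 groups alone, a replicate block, limma 3.58.1 on the deposited log2 values, and leaving out each library. Leaving out DMSO library 3 and TBT library 4 together was added after seeing the data.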

Additional observations from a re-analysis of the deposited data

Results flagged for a closer look

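Among 48 groups of 4 libraries (the 9 genes and 7 marker sums in 3 treatments), 3 held a library far from the others by Dixon's test, where chance alone flags about 1 group in 20. Tusc5 was at 52.2 CPM in DMSO library 3, with the next highest DMSO library at 7.25 CPM, so that 0.938 of the range of the group lay in that gap. The summed adipocyte markers of the same library were 2408 CPM, with the next highest DMSO library at 1334 CPM (0.835 of the range). Lnpep was at 290 CPM in ROSI library 2, with the next lowest ROSI library at 332 CPM (0.948 of the range).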

How the results depend on the processing

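Of 537 values of the 9 genes under 20 settings (27 fold changes), 510 kept their direction and their side of the threshold, 15 came to pass it, 7 no longer passed it and 5 changed sign; DESeq2 gave no adjusted p for Tusc5. The 5 changes of sign were in TBT against DMSO, close to 0. Akt2 was at -0.0074 with upper-quartile factors, -0.068 without TBT replicate 4 and -0.033 without both DMSO library 3 and TBT library 4, and Lnpep was at -0.026 without DMSO replicate 4 and -0.036 without those 2 libraries. Leaving out 1 library, Akt2 ranged between -0.068 and 0.16 and Lnpep between -0.026 and 0.18 in this comparison. The 27 mean levels moved by less than 1 SD under 2 other scalings. The cause was not tested for any change.

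Of the pathway genes named by rule, 1188 of 1420 values kept the call, 232 lost it and none changed sign. On the shrunken deposited log2 values the fold changes of low genes were smaller (Slc2a4 in ROSI against DMSO 1.05, against 2.34 from counts).

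For all genes, leaving out 1 library gave 2219 to 3537 calls in ROSI against DMSO (2787 with all), 1019 to 4124 in TBT against DMSO (1879) and 1732 to 4826 in TBT against ROSI (2940), with the highest counts of the TBT comparisons without TBT library 4. For the 9 genes these ranges were 4 to 5 higher and 1 to 2 lower, 2 to 3 higher and 0 to 1 lower, and 1 to 2 higher and 2 to 4 lower in the 3 comparisons in that order. For the other pathway genes they were 11 to 16 higher and 8 to 14 lower, 6 to 21 higher and 3 to 27 lower, and 9 to 24 higher and 9 to 32 lower. A fit of the 2 groups alone gave 1199 calls in TBT against DMSO, with 4 pathway genes lower, and 10 pathway genes higher in TBT against ROSI. Without a filter that last count was 11, and with DESeq2 2 of the 9 genes were higher in TBT than in ROSI cells. Without both libraries, TBT against DMSO gave 3741 calls, with 16 pathway genes higher and 27 lower, and TBT against ROSI gave 4650, with 32 pathway genes lower.

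The replicate block was fitted though the numbers share nothing in the labels: 2 of 12 pairs of libraries with the same number had deviations correlated above 0.1, and 1 of 12 libraries correlated best with its own number. With the replicate block there were 2289 calls in ROSI against DMSO, 1160 in TBT against DMSO and 2154 in TBT against ROSI. In TBT against DMSO 3 pathway genes were then lower, and in TBT against ROSI 10 were higher. Of the 9 genes, Akt2 in ROSI against DMSO lost its call under the block, and the other 26 values kept theirs.

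Depth limits Slc2a4 most, at 5 to 32 reads in each TBT and DMSO library.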
